A study of Rattus norvegicus with 8 samples.

Results

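The activator protein 1 (AP-1) transcription factors were followed by the level of their mRNAs in the hippocampus of adrenalectomized (ADX) rats that received an acute corticosterone infusion. The family was taken as 9 genes chosen by name, Fos, Fosb, Fosl1, Fosl2, Jun, Junb, Jund, Atf3 and Batf3, and every transcript row carrying one of these symbols was used. This gave 8 transcripts for 8 genes, 1 transcript each, out of 16266 transcripts and 13272 gene symbols. No row of the table used carries the symbol Atf3, and this stress-inducible gene was not analysed here.

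RNAseq was performed on whole hippocampi of 8 rats, 4 infused with vehicle and 4 with corticosterone (CORT). Vehicle was 0.45% saline, and CORT was given as corticosterone-2-hydroxypropyl-β-cyclodextrin at 0.75 mg/mL, each through a jugular cannula for 30 min from zeitgeber time (ZT) 2. All 8 rats had lost both adrenal glands, had then been kept on corticosterone in the drinking solution until a washout on saline, and were thus without adrenal corticosterone when the infusion began. The labels describe Sprague-Dawley rats of 3 to 4 months sampled at ZT 2, whereas the methods describe male Lister hooded rats of a younger age, given in weeks, killed 2 h after the start of the infusion, at ZT 4. The titles of the vehicle samples read untreated, and their treatment field names the vehicle.

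AP-1 is a dimer. Proteins of the Fos, Jun and Atf subfamilies share a basic region that binds DNA and a leucine zipper that joins the partners; Fos proteins need a Jun partner, whereas Jun proteins can also pair with each other. Several of these genes are immediate early genes, switched on briefly in hippocampal neurons by synaptic activity, with Fos the usual marker of recently active cells, while Jun and Jund are also present in neurons at rest. The glucocorticoid receptor is known to restrain AP-1 through contact between the proteins, a level of control that mRNA measurements do not read.

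Each transcript has 1 FPKM value per group (sequenced fragments corrected for transcript length and for the size of the library), estimated over the 4 rats of that group. No value per rat was used, so no SD, no test between the groups and no replicate check can be given for any difference here, and the depth behind a value is unknown. A change is given as the log2 of CORT over vehicle FPKM, and at least 1.5-fold is used throughout as a size limit and not as a test. Because whole tissue was sequenced, fewer cells of a type and less RNA per cell cannot be told apart.

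The Fos subfamily was higher with CORT for each of its 4 genes. Fos, at 109300432 to 109303299 of chromosome 6 of rn6, was at 2.87 FPKM after vehicle and 5.38 FPKM after CORT, a 1.88-fold difference and a log2 of 0.91. Fosb, at 80214493 to 80221710 of chromosome 1, was at 0.600 FPKM after vehicle and 1.12 FPKM after CORT, which is 1.87-fold or a log2 of 0.90. Fosb encodes both full-length FosB and the shortened, long-lived ΔFosB, and the single Fosb row cannot separate the splice forms. By these values both genes were almost equally higher, although the level of Fos was 4.78 times that of Fosb in the vehicle group and 4.81 times in the CORT group. Fosb has a mean under 1 FPKM, and with 1 FPKM added its log2 was 0.41 against 0.72 for Fos.

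The Fos-related antigens differed less. Fosl2 (Fra-2), at 25598935 to 25616995 of chromosome 6, was at 4.39 FPKM after vehicle and 5.91 FPKM after CORT, a log2 of 0.43. Fosl1 (Fra-1), at 220826559 to 220835066 of chromosome 1, was at 2.58 and 2.92 FPKM, a log2 of 0.18. The 4 Fos genes together summed to 10.4 FPKM after vehicle and 15.3 FPKM after CORT, a log2 of 0.55, and the median of their log2 values was 0.66.

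**Figure D1:**
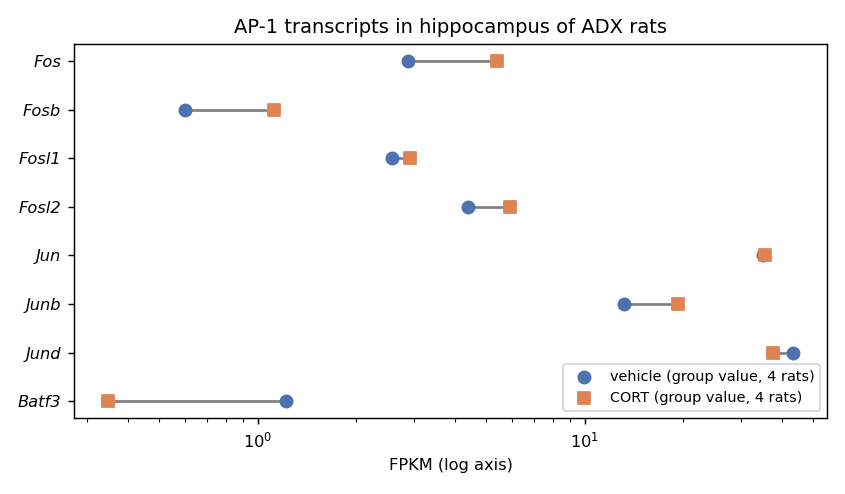
FPKM of the 8 AP-1 transcripts on a log axis, 1 gene per line, with a circle for the vehicle and a square for the CORT group value, each estimated by the authors over 4 rats and shown without an error because none was used. The squares lie to the right of the circles for Fos, Fosb, Fosl2 and Junb, and far to the left for Batf3. They lie slightly to the right for Fosl1, slightly to the left for Jund and almost on the circle for Jun.

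Within the Jun subfamily the 3 genes went different ways. Junb, an activity-induced member that is a weaker activator than Jun at many sites, lies at bases 26092973 to 26094756 of chromosome 19 and was at 13.2 FPKM after vehicle and 19.3 FPKM after CORT. This 1.46-fold difference, a log2 of 0.55, falls just short of the 1.5-fold limit and was the largest gain of the family in absolute terms, 6.09 FPKM. Jun, the main partner of Fos and the substrate of the Jun N-terminal kinases, lies at bases 114011188 to 114014277 of chromosome 5 and was at 35.0 and 35.5 FPKM, a log2 of 0.02 that turned to -0.01 with the log2 values centred on the median of all transcripts and to -0.07 with the groups rescaled to the same summed FPKM. Jund, the member least dependent on stimulation, lies at bases 20485028 to 20486707 of chromosome 16 and was at 43.4 FPKM after vehicle and 37.6 FPKM after CORT, a log2 of -0.20. The loss in Jund, at -5.74 FPKM, nearly offset the gain in Junb, and the 3 Jun genes summed to 91.6 FPKM after vehicle and 92.4 FPKM after CORT.

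Batf3 was the member with the largest difference and the lowest level in the CORT group. It encodes a small AP-1 protein without an activation domain of its own that pairs with Jun proteins and is best known from the development of dendritic cells. Batf3, at 109713488 to 109724863 of chromosome 13, was at 1.22 FPKM after vehicle and 0.348 FPKM after CORT, 3.51-fold lower, a log2 of -1.81. Of the transcripts used, none other overlapped the locus of any of the 8 members.

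Among the Jun genes the 2 that moved apart were Junb and Jund, among the Fos genes Fosl1 moved least, and Batf3 was the only member that was lower by at least 1.5-fold, so the 250 bases upstream of these 4 genes are shown for comparison. They are RefSeq sequences of the GRCr8 assembly, a later build than the rn6 genome of the expression values, and run 5′ to 3′ toward the annotated start. Capitals mark matches to the letters of 4 motifs on either strand, namely the cAMP response element (CRE, TGACGTCA), its core (TGACG), the hexamer of the glucocorticoid response element (GRE, AGAACA) and the TATA box (TATAAA). Junb lies on the plus strand of chr19:40080876-40081125, Jund on the minus strand of chr16:18769772-18770021, Fosl1 on the plus strand of chr1:212183635-212183884 and Batf3 on the plus strand of chr13:105220532-105220781.
Junb: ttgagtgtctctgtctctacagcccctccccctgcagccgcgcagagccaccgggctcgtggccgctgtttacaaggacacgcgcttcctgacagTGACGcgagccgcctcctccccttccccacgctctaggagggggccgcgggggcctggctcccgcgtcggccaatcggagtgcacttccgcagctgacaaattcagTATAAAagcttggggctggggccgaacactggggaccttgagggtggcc
Jund: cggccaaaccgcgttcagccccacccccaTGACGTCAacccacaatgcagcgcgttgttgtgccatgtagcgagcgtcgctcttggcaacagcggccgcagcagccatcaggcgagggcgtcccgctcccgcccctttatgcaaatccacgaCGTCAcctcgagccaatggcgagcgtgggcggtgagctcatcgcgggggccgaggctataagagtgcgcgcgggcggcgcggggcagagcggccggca
Fosl1: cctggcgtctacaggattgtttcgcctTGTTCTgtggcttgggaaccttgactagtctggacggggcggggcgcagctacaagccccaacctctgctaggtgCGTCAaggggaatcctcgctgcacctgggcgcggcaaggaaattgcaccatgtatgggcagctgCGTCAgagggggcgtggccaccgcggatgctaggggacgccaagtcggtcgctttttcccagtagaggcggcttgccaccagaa
Batf3: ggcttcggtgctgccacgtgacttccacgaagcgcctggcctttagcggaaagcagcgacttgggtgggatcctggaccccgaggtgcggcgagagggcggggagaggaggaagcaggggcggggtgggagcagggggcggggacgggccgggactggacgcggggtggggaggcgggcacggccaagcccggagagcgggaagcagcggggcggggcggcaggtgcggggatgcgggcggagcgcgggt

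Of the 9 genes, 6 had an entry in the RefSeq promoter table, and the sequences for Fos, Jun and Atf3 are not shown. Jund was the only one of the 6 with a full CRE, at bases -221 to -214 from the start, an element found in 1.59% of the 33469 promoter windows of this length. Since the full CRE reads TGACG on both strands it also holds 2 of the 3 cores of Jund, and the third lies at bases -98 to -94. A CRE core was present once in Junb, at -155 to -151, and 2 times in Fosl1, at -148 to -144 and -84 to -80, against 18.2% of all windows with at least 1 match. The GRE hexamer was found in Fosl1, at -223 to -218, and in 17.5% of all windows. Junb had a TATA box at -49 to -44, and Fosb had these letters on the opposite strand at -180 to -175, against 12.9% of all windows. The Fosb window lies inside the outer limits of the gene in the same assembly and is therefore not printed. The AP-1 site itself (TGANTCA) occurs in 6.34% of all windows and in none of the 6. Fosl2 and Batf3 held none of the letters searched.

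**Figure D2:**
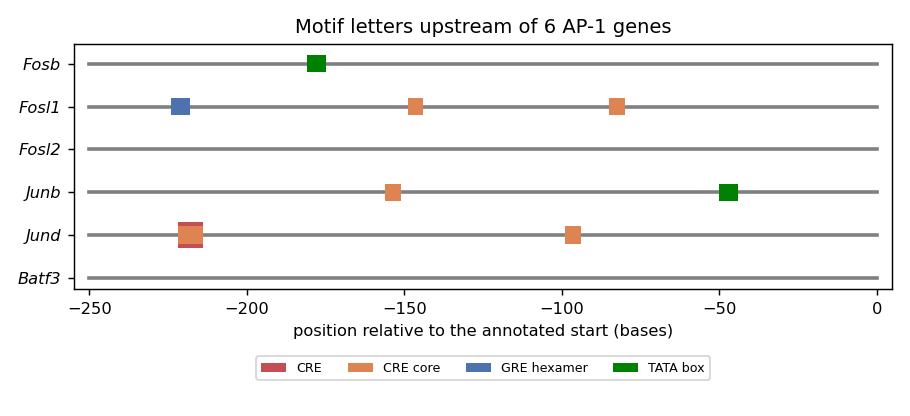
Matches to motif letters in the 250 bases upstream of 6 AP-1 genes, with the position relative to the annotated start in bases on the x axis and 1 gene per line. Jund carries the full CRE with its cores, Junb and Fosl1 carry CRE cores, and the lines of Fosl2 and Batf3 are empty.

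Of all 8 transcripts, 6 were higher and 2 lower with CORT, against 55.0% of all transcripts that were higher. Because the sign of Jun turned, the split was 5 and 3 after centring, against 50.0% of all transcripts, and 5 and 3 after rescaling, against 34.3%. The median log2 was 0.30 for the members and 0.022 for all transcripts, whose middle portion, from the lower to the upper quartile, ran from -0.11 to 0.14. Fos and Fosb were raised by at least 1.5-fold, 2 of 8, while 4.21% of all transcripts were. Batf3 was lowered by at least 1.5-fold, 1 of 8, and so were 4.91% of all transcripts. With a lower limit, at which the higher group reached 125% of the other, Fosl2 and Junb joined Fos and Fosb, giving 4 of 8 raised against 9.54% of all transcripts, and 1 of 8 lowered against 10.8%.

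How unusual a fold is depends on the level at which it is read. For transcripts with a mean of both groups under 1 FPKM, where Fosb (0.859 FPKM) and Batf3 (0.784 FPKM) lie, 20.7% were raised and 28.0% lowered by at least 1.5-fold. Among these low transcripts, 14.5% had a log2 at least as high as that of Fosb, and 5.53% had one lower than that of Batf3. Differences of at least 1.5-fold were thus frequent at the level of Fosb and Batf3. From 1 to under 10 FPKM, the range of Fos, Fosl1 and Fosl2, the shares were 5.32% raised and 6.30% lowered. In that range 2.27% of transcripts had a log2 at least as high as that of Fos, 8.85% as that of Fosl2 and 23.7% as that of Fosl1. From 10 to under 100 FPKM, the range of the 3 Jun genes, only 1.35% were raised and 1.03% lowered. Junb, although short of the limit, was exceeded or equalled by 1.46% of transcripts there, and 6.92% had a log2 lower than that of Jund.

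**Figure D3:**
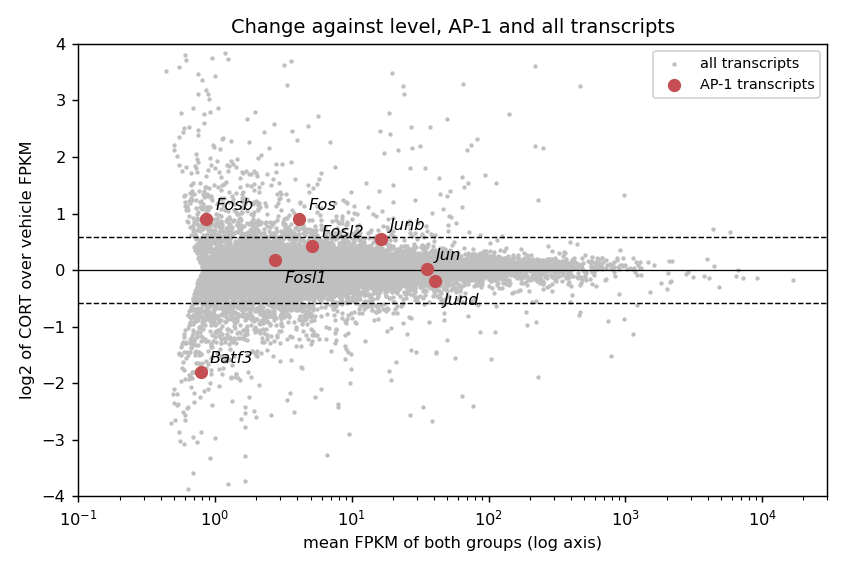
The log2 of CORT over vehicle FPKM (y axis) against the mean FPKM of both groups on a log axis (x axis), in grey for all transcripts and in red for the 8 AP-1 transcripts, with dashed lines at 1.5-fold; 45 transcripts lie outside the plotted range. The grey cloud narrows as the level rises, so that Junb at a log2 of 0.55 stands at its upper edge while Fosb at 0.90 does not.

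The order of the levels changed at its lower end. In the vehicle group it ran from Jund (43.4 FPKM) through Jun, Junb, Fosl2, Fos, Fosl1 and Batf3 to Fosb (0.600 FPKM). In the CORT group the first 6 places were the same, and Fosb (1.12 FPKM) stood above Batf3 (0.348 FPKM). Without values per rat it cannot be said which neighbours in this order differed beyond their spread. In both groups Jund and Jun held most of the AP-1 signal, since Jund made up 42.0% of the summed FPKM of the 8 transcripts with vehicle and 34.8% with CORT, and Jun 33.9% and 32.8%.

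The makeup of the family thus differed between the groups while its total was close, 103 FPKM after vehicle and 108 FPKM after CORT. Junb made up 12.8% of the summed FPKM with vehicle and 17.8% with CORT, Fos 2.78% and 4.98%, and Fosl2 4.25% and 5.47%. The Fos subfamily as a whole had 10.1% with vehicle and 14.2% with CORT. Ratios between members do not depend on how the groups were scaled. The ratio of Junb to Jund was 0.304 in the vehicle group and 0.512 in the CORT group, and that of Fos to Jun was 0.0818 and 0.152. For Fos over Fosl1 the ratio was 1.11 with vehicle and 1.84 with CORT, and for Jun over Jund it was 0.808 and 0.942.

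**Figure D4:**
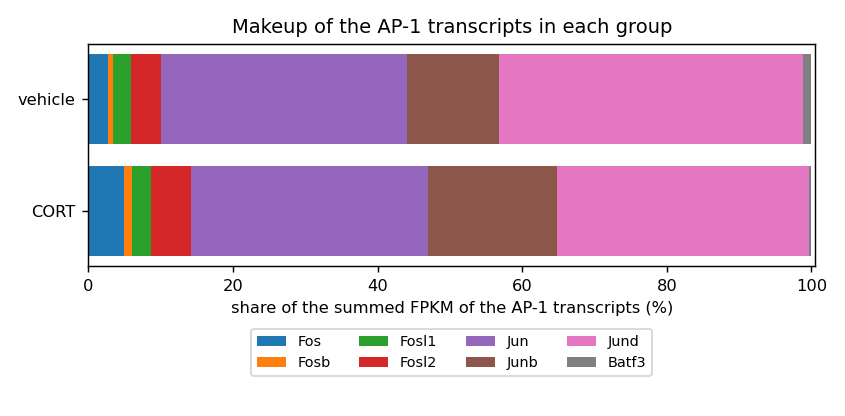
Share of each AP-1 gene, in percent of the summed FPKM of the 8 transcripts, with 1 bar for the vehicle and 1 for the CORT group. Jund narrows from 42.0% to 34.8%, Junb widens from 12.8% to 17.8% and Fos from 2.78% to 4.98%, while Jun stays close to 33%.

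The wider pathway was read from 6 lists with 110 gene symbols, older and newer names of a gene included, of which 91 had a transcript, and a symbol with several transcripts was read from the one at the highest mean FPKM. On that basis 1.92% of all 13272 symbols were raised and 3.99% lowered by at least 1.5-fold. Among 19 other basic leucine zipper genes 1 was raised and none lowered, with a median log2 of 0.07. The 1 raised was Nfil3, a repressor linked to the clock, at 5.46 FPKM after vehicle and 8.33 FPKM after CORT, whereas Jdp2, a repressor that dimerizes with Jun, was at 33.8 and 35.5 FPKM.

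None of 18 kinases upstream of AP-1 passed the limit in either direction, and the largest difference was in the ribosomal S6 kinase Rps6ka1, a log2 of -0.38. The 3 Jun N-terminal kinases Mapk8, Mapk9 and Mapk10 had log2 values of 0.18, -0.01 and 0.17. Of 14 transcription factors and coactivators that act on the Fos and Jun promoters, 1 was raised, Mkl1, a coactivator of serum response factor, at 15.9 FPKM after vehicle and 24.1 FPKM after CORT. With its 3 transcripts summed, Mkl1 was at 18.8 and 26.8 FPKM, a log2 of 0.52 and inside the limit. Srf itself was at 17.9 and 18.5 FPKM. Of 12 genes that degrade or restrain AP-1 or its kinases, 1 was raised, the ERK phosphatase Dusp5, at 3.97 and 6.03 FPKM.

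Most other immediate early genes leaned the same way as Fos and Junb, 11 of 14 being higher, against 55.0% of all transcripts. Their median log2 was 0.25, against 0.02 for all symbols. Of the 14, 4 were raised by at least 1.5-fold and none lowered, against 1.92% and 3.99% of all symbols. Ier3 (a log2 of -0.40), Npas4 (-0.30) and Ier5 (-0.16) were lower. The raised genes were Egr1 (20.8 FPKM with vehicle, 32.6 FPKM with CORT), Nr4a1 (12.5 and 21.4 FPKM), Arc (8.27 and 14.4 FPKM) and Egr2 (0.312 and 1.18 FPKM), of which Egr2 has a mean under 1 FPKM and was named after its values were seen.

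Genes reported as AP-1 targets were mostly inside the limit, and those beyond it were all lower with CORT. None of the 16 with a transcript, out of 25 listed, was raised by at least 1.5-fold and 5 were lowered, against 1.92% and 3.99% of all symbols. Their median log2 was -0.11, against 0.02 for all symbols. Vim, the intermediate filament vimentin, was at 117 FPKM after vehicle and 54.4 FPKM after CORT, a log2 of -1.11. Timp1, an inhibitor of matrix metalloproteinases, was at 13.3 and 4.45 FPKM, a log2 of -1.58. The heme oxygenase gene Hmox1 had a log2 of -0.80 and the cyclin gene Ccnd1 one of -0.64. The fifth, the chemokine gene Ccl2, was at 1.18 and 0.234 FPKM and was named after its values were seen because its mean is under 1 FPKM. The other 11 targets were inside 1.5-fold by their transcript of highest mean, although a second transcript was lowered past it for Penk (2.70 FPKM after vehicle, 1.00 FPKM after CORT, a log2 of -1.43) and for Cd44 (2.59 and 1.69 FPKM, a log2 of -0.62).

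**Figure D5:**
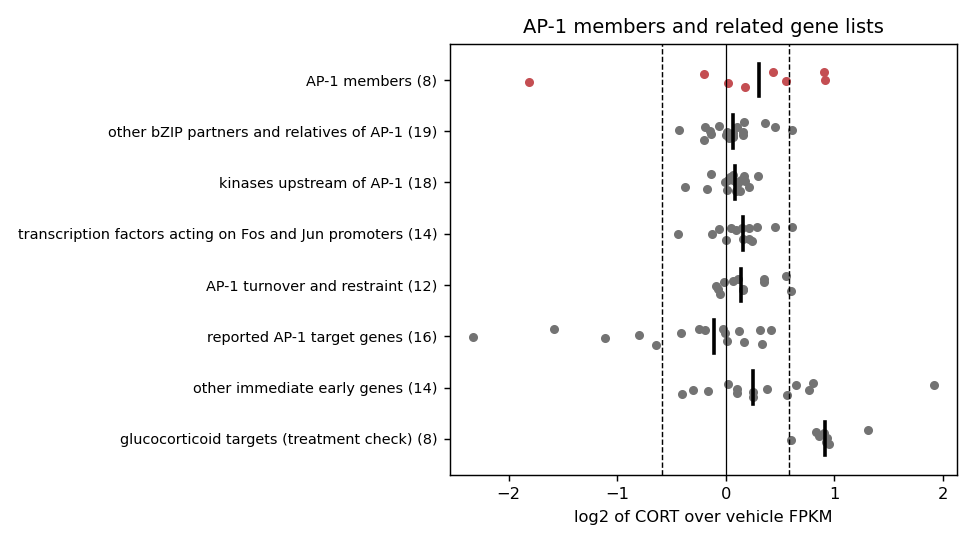
The log2 of CORT over vehicle FPKM for the 8 AP-1 members (red) and for the genes of 7 related lists (grey), 1 point per gene symbol, with the number of genes in brackets, a black bar at the median of each list and dashed lines at 1.5-fold. Kinases and other basic leucine zipper genes cluster near 0, immediate early genes lean to the right with a median of 0.25, reported AP-1 targets extend to the left, and the 8 glucocorticoid targets lie beyond the right dashed line.

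The treatment and tissue labels were read against marker genes. All 8 glucocorticoid target genes listed, among them Per1, Fkbp5 and Sgk1, were raised by at least 1.5-fold, against 1.92% of all symbols. Their median log2 was 0.91. The list was chosen with earlier results of these data known, so this count is not an independent check of the treatment. The hippocampal neuron markers Slc17a7 and Camk2a were at 736 and 593 FPKM in the vehicle group and 794 and 667 FPKM in the CORT group, and the sum of 8 such markers, of which both make up most, had a log2 of 0.11. Of these 8 markers 6 were higher with CORT, 1 of them past the limit, Zbtb20 at 1.55 and 2.72 FPKM, while Prox1 (a log2 of -0.28) and Neurod6 (-0.10) were lower. The markers Neurod2, Fibcd1, Pecam1, Col1a2, Gbx2 and Tac2 were not analysed here. Markers of other cells and of neighbouring tissue differed between the groups too. Of 6 thalamic and habenular markers, 5 were lowered and 1 raised, against 3.99% and 1.92% of all symbols. Their summed levels were 17.2 FPKM after vehicle and 7.20 FPKM after CORT. The raised Rora and the lowered Chrnb4 each had a mean under 1 FPKM. The other lowered ones had a mean above it, namely Chrna3 (3.40 FPKM after vehicle, 0.557 FPKM after CORT), Gpr151 (3.24 and 0.573 FPKM), Tcf7l2 (5.22 and 2.59 FPKM) and Lef1 (3.38 and 2.04 FPKM). Meningeal fibroblast markers were lowered in 3 of 5, with sums of 51.3 and 35.9 FPKM, and blood markers in 4 of 6 with 1 raised, with sums of 1426 and 823 FPKM. Astrocyte markers were lowered in 2 of 6, with sums of 1501 and 1016 FPKM. Most of that fall is in Gfap, at 970 and 517 FPKM, and 1 of the 6, Slc1a2, was higher (159 and 175 FPKM). None of 6 oligodendrocyte (sums of 5097 and 4234 FPKM), 5 endothelial (71.1 and 62.2 FPKM), 6 choroid plexus (6749 and 6736 FPKM) or 6 interneuron markers (406 and 505 FPKM) passed the limit, and 1 of 6 microglial markers was raised while their sum went from 120 to 97.1 FPKM. No marker with a transcript was at 0 in either group. The part of these shifts in the lower values of Batf3, Vim, Timp1 and Ccl2, or in the higher values of Fos, Fosb and Junb, was not tested.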

How the data were processed

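RNAseq libraries had been made from whole hippocampi of 8 rats, 4 per group. Per the labels, TopHat2 2.0.10 and Cuffdiff 2.2.0 were used with the rn6 genome; the methods add geometric library scaling, pooled dispersion, an alignment count of at least 10, and allowance for multi-mapped reads, sequence bias and effective length. The authors deposited 1 FPKM value per Ensembl transcript and group. Their columns of fold changes, test statistics, p-values, q-values and significance were not used. With only group values, no test, error or per-sample depth could be given, and the tests per rat foreseen for values per rat were not run.

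Fold changes were CORT over vehicle FPKM without a pseudocount, as no value was 0, and coordinates are those of the authors' table. Lists used the transcript with the highest mean FPKM per symbol. Genes were named by rule. All members were named, then genes of the 6 pathway lists past 1.5-fold with a mean of at least 1 FPKM, and otherwise the largest change of a list. Of the glucocorticoid targets and cell markers past 1.5-fold, only some were named. Named outside this rule, after their values were seen, were Jdp2, the Jun N-terminal kinases, Srf, Ier3, Npas4 and Ier5. The same holds for Slc17a7, Camk2a, Prox1, Neurod6, Slc1a2, Rora, Chrnb4 and genes shown for their several transcripts. The members and lists were chosen with earlier results of these data known, and the 3 bands of mean FPKM after the values were seen. Motif letters were matched exactly in RefSeq windows of 250 bases. Alternatives were 1 or 0.1 FPKM added, centring, rescaling, summed transcripts, other fold limits and a filter of 1 FPKM. Fold and count functions were tested on simulated data. Python 3.11.15, numpy 2.4.6, pandas 2.3.3 and matplotlib 3.10.9 were used.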

Additional observations from a re-analysis of the deposited data

How the results depend on the processing

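The 2 members raised and 1 lowered by at least 1.5-fold became 4 and 1 with a lower limit, 125% of the other group, and 0 and 1 with a limit of 2-fold. At the lower limit 9.54% of all transcripts were raised and 10.8% lowered. With 1 FPKM added to both groups 1 member was raised, as the log2 of Fosb went to 0.41, while Fos was at 0.72 and Batf3 at -0.72; with 0.1 FPKM added Batf3 was at -1.56. With transcripts of a mean of at least 1 FPKM, which keeps 6 of 8, 1 member was raised (Fos) and 0 were lowered. No share of all transcripts was taken at 2-fold, with FPKM added or after this filter. The member counts at those settings therefore cannot be set against one. The median log2 of 0.30 was 0.43 without Batf3, a choice made after the data were seen. Centring, rescaling the groups to the same sum and summing transcripts moved no member's log2 by more than 0.1, but Jun turned from 0.02 to -0.01 with centring and -0.07 with rescaling, which makes 5 members higher and 3 lower; rescaling took the median of all transcripts from 0.022 to -0.068. Of the 91 pathway genes 7 were raised and 5 lowered by at least 1.5-fold, against 1.92% and 3.99% of all symbols. All 5 lowered genes were reported AP-1 targets. The counts were 16 and 10 at that lower limit, 1 and 3 at 2-fold, and 4 were raised with 1 FPKM added. No share of all symbols was taken at these other settings, so those counts cannot be set against one. No paired analysis was possible because the 2 value columns are group values without replicate numbers, and leaving out each rat was not run for the same reason. Depth is unknown, so no limit can be set for low transcripts such as Fosb and Batf3.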

Other observations

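Each AP-1 member had 1 transcript, so a shift between its splice forms could not be read, whereas 23 of the pathway genes had several. For 9 of these 23 the transcripts lay on both sides of 0, 39.1% against 54.8% of the 2383 symbols with several transcripts in the whole table. Mkl1 was the only pathway gene with 1 transcript raised and another lowered by at least 1.5-fold. That is 4.35% of the 23, close to the 3.23% of all symbols with several transcripts. The main Mkl1 transcript was at 15.9 FPKM after vehicle and 24.1 FPKM after CORT, another was at 2.91 and 1.53 FPKM, and a further one at 0.00254 and 1.16 FPKM.

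Of the 21 pathway genes with several transcripts whose transcript of highest mean was inside 1.5-fold, 4 had another transcript lowered past it and 0 had one raised, 19.0% and 0% against 9.65% and 16% of the 2269 such symbols in the whole table. Penk, the precursor of the enkephalins, had transcripts at 20.6 and 20.5 FPKM and at 2.70 and 1.00 FPKM after vehicle and CORT. Cd44, a hyaluronan receptor, had transcripts at 3.53 and 3.09 FPKM and at 2.59 and 1.69 FPKM. Fbxw7, which encodes a ubiquitin ligase subunit that marks Jun for degradation, had main transcripts at 19.8 and 19.5 FPKM and at 17.3 and 18.2 FPKM, and a minor one at 0.819 FPKM after vehicle and 0.190 FPKM after CORT. Crem, which encodes activators and repressors acting at the CRE, had transcripts at 14.2 and 14.3 FPKM, at 2.91 and 3.65 FPKM, at 1.09 and 1.18 FPKM and, the one past the limit, at 0.873 and 0.318 FPKM. The lowered transcripts of Fbxw7 and Crem lie under 1 FPKM, where 28.0% of transcripts were lowered by at least 1.5-fold, and those of Penk and Cd44 above it. These counts were chosen after the values were seen.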
